A study of Rattus norvegicus with 30 samples.

Results

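The comparison described here is that of a vitamin A-excess with a vitamin A control diet in rats that had a sham operation, read in the RNA of their CD31-positive lung cells. Its members were chosen by the treatment label, which gave 5 libraries on each diet, 10 of the 30 in the series. All rats were wild-type, the cells were collected 3 weeks after the operation, and they were sorted with microbeads for CD31, which endothelial cells carry on their surface. The labels give neither the strain nor the age, nor the dose of vitamin A in either diet, and they do not say that the 5 libraries of a group came from 5 animals, so p-values measure the spread between these libraries. The other groups of the series, used here only for the spread of each gene and for values set side by side, were a vitamin A-deficient diet after sham and the same 3 diets after a Glenn operation, in which blood from the upper body is led straight from the caval vein into the lung.

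Vitamin A is carried in blood as retinol and taken up by cells, where retinol dehydrogenases and then retinaldehyde dehydrogenases turn it into retinoic acid. Retinoic acid binds the RAR receptors, which sit on DNA with RXR partners and switch on target genes, among them the CYP26 enzymes that break retinoic acid down again. In the lung, retinoic acid is known for its part in the formation of alveoli and their vessels, and mesothelial cells and fibroblasts hold much of the enzyme Aldh1a2 that makes it.

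Library totals ranged from 34.9 to 58.1 M estimated counts (M, mega), and 17146 to 17851 genes had a count. Levels are given as CPM, counts per M after TMM scaling, which compares a gene between libraries but not genes of different length with each other. The endothelial genes Pecam1 and Cdh5 stood at 1220 and 2501 CPM on the control diet, which fits the sort label, but Sftpc, the surfactant protein of type 2 alveolar epithelial cells, stood at 26118 CPM, so the sorted material was not endothelial RNA alone. Each diet group held 2 libraries with the Y-linked transcript Ddx3y and 3 without it. The library names of all 10 lie between 355 and 371, a single number range. Within it the excess libraries are 355 to 359 and the controls 365 to 371, so diet and the order of the names cannot be told apart.

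The groups were not balanced for RT1-CE16, a class I gene of the rat major histocompatibility complex whose reads can be shared with its near-identical relatives. Control libraries 1 and 2 had 27.8 and 39.4 CPM of it, whereas control libraries 3, 4 and 5 had 673, 562 and 556 CPM. All 5 excess libraries were low, at 25.7 to 44.4 CPM. Diet and RT1-CE16 level are therefore partly the same split, so the changes of many genes and lists are also given without the 3 RT1-CE16-high controls, which leaves 2 controls against 5 excess libraries. Control library 3 also stood apart by leukocyte genes. Its 5 leukocyte markers summed to 63.5 CPM, against 3.63 to 10.6 CPM in the other 4 controls and 6.76 to 14.8 CPM on the excess diet.

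Of 16171 genes tested, 39 differed between the diets at an adjusted p under 0.05 by edgeR's quasi-likelihood test, which is 0.241% of those tested. The excess diet went with a higher level of 25 of them (0.155%) and a lower level of 14 (0.0866%). The genes that rose did so by small steps, with log2 changes of 0.29 to 0.96 and a median of 0.42. Casp8ap2, Siah2, Ccnl1 and Ppp1r10 were among those with the smallest p. The genes that fell moved further, with a median log2 change of -0.90. Bok, Plxdc2, Scara3 and Gramd4 were among those with the smallest p. In bulk RNA, fewer cells of a type and less RNA per cell cannot be told apart. In 23 of the 25 raised and 13 of the 14 lowered genes the control and excess libraries did not overlap, against 1.12% and 1.07% of all genes tested (354 genes, or 2.19%, in either direction).

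At an unadjusted p under 0.05, 1788 genes (11.1%) differed, 799 higher (4.94%) and 989 lower (6.12%) on the excess diet. The median log2 change over all genes was -0.002, and 49.6% of them lay above 0. Among the 1906 genes averaging 100 to 1000 CPM, 17 were past the adjusted threshold, as were 17 of the 7525 genes at 10 to 100 CPM. Among the 2878 genes under 1 CPM there was 1.

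**Figure D1:**
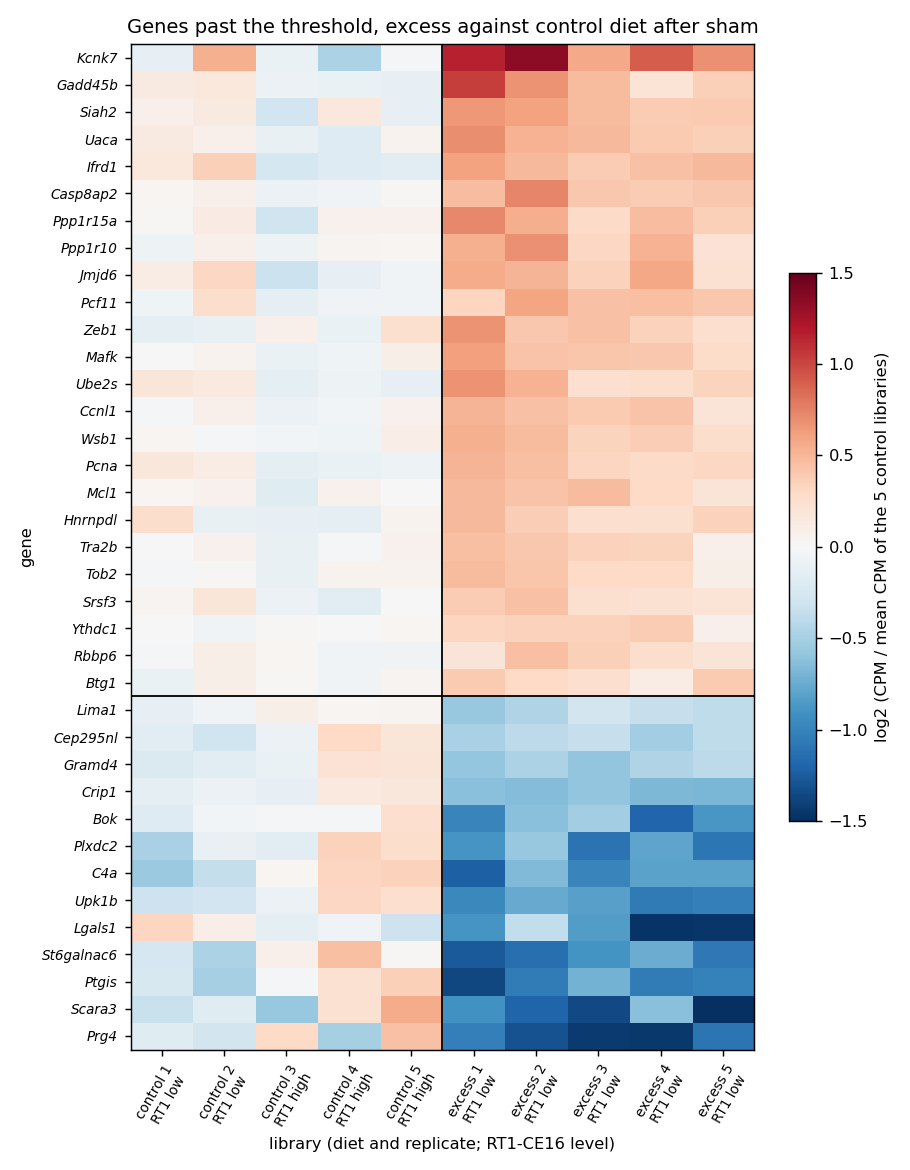
Heat map of the 37 genes past the threshold that have a symbol and average 1 CPM or more (rows) in the 10 sham libraries (columns, with their RT1-CE16 level), coloured by log2 of the CPM over the mean of the 5 controls; colours saturate at 1.5 and -1.5. The raised genes are red across all 5 excess libraries, and the lowered genes are blue across them; in the lower block controls 1 and 2 are mostly pale blue and controls 4 and 5 mostly pale red.

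The call rested on few libraries. Without the 3 RT1-CE16-high controls no gene was past the adjusted threshold, while 904 (5.34%) had an unadjusted p under 0.05. With RT1-CE16 level as a term, or in RT1-CE16-low libraries alone, it was also 0, with 1108 (6.85%) and 849 (5.14%) at an unadjusted p under 0.05. DESeq2 on all libraries called 210 (1.3%). All 39 genes kept their sign without those controls, as did 73.2% of all genes tested, and their changes were at a median 78.5% of the size with all 5 controls. In 33 of the 39 genes, controls 1 and 2 had a mean nearer to that of the excess libraries than controls 3 to 5 had. The genes were picked with these same controls, and the share over all genes tested was not counted. Leaving out control library 3 alone, excess library 1 or excess library 2 also left 0 genes past the threshold, with 1619, 1287 and 1660 at an unadjusted p under 0.05. It was 1 without control 4 or control 5, 5 without excess 4, 17 without excess 3, 69 without control 2 and 79 without control 1.

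**Figure D2:**
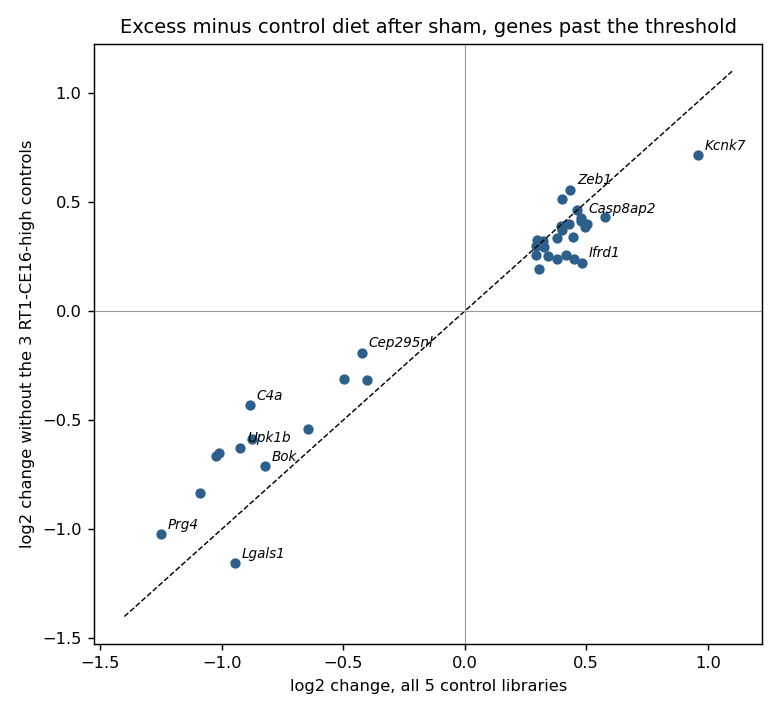
Log2 change, excess minus control diet after sham, with all 5 controls (x axis) against the change without the 3 RT1-CE16-high controls (y axis) for 38 of the 39 genes past the threshold; Rspo3, at almost no counts, is left out, and the dashed line marks equal values. All points keep their sign; the lowered genes lie mostly above the line, as C4a does (-0.88 against -0.43), while Zeb1 and Lgals1 lie farther from 0 without those controls.

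Casp8ap2, a nuclear protein that binds the caspase-8 death complex and is needed for histone gene transcription, had the smallest p. Its level was 36.1, 37.2, 33.3, 34.0 and 35.8 CPM in control libraries 1 to 5 and 48.8, 58.5, 46.5, 45.8 and 46.6 CPM in the excess libraries. The groups did not overlap, and excess library 2 was the highest. The controls lay close together, with the RT1-CE16-low libraries 1 and 2 just above the other controls. The log2 change was 0.48 (SE 0.08, adjusted p 0.0217, 35.3 ± 1.58 against 49.2 ± 5.30 CPM, SD, n = 5 each), and 0.43 without the RT1-CE16-high controls.

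Siah2 encodes a ubiquitin ligase that marks regulators of the hypoxia response for breakdown. Control libraries held 28.2, 29.4, 21.96, 30.005 and 24.5 CPM and excess libraries 42.0, 40.8, 37.2, 34.9 and 35.1 CPM. The groups did not overlap, and the log2 change was 0.50 (SE 0.09, adjusted p 0.0217), or 0.40 without the RT1-CE16-high controls.

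Several raised genes act in RNA synthesis and processing. This grouping and the next were made by hand from the called genes and were not tested. Ccnl1, a cyclin bound to splicing kinases, had 324, 345, 307, 319 and 344 CPM on the control diet and 468, 446, 432, 442 and 374 CPM on the excess diet (log2 change 0.40, SE 0.08, adjusted p 0.0333). Ppp1r10, a nuclear partner of protein phosphatase PP1 in transcription termination, had 416, 463, 418, 454 and 449 CPM against 638, 708, 545, 629 and 512 CPM (0.46, SE 0.09, adjusted p 0.0333). Pcf11, a factor that cleaves and ends transcripts, had 89.2, 112, 85.0, 90.2 and 90.1 CPM against 117, 141, 126, 128 and 123 CPM (0.45, SE 0.09, adjusted p 0.0333). None of the 3 overlapped between the diets, though the highest control of Pcf11, library 2, came near the lowest excess library.

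Of the same kind were Hnrnpdl (log2 change 0.34), Tra2b (0.33) and Srsf3 (0.30), which are splicing factors, Rbbp6 (0.29), which takes part in forming transcript ends, Ythdc1 (0.30), a nuclear reader of methylated adenosine, and Jmjd6 (0.45), an oxygenase that acts on splicing factors. All 6 were past the threshold. Jmjd6 had 0.24 and Srsf3 0.19 without the RT1-CE16-high controls. For Hnrnpdl and Jmjd6 the diets overlapped, with the highest controls at 51.2 and 40.2 CPM and the lowest excess libraries at 50.4 and 37.8 CPM.

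A second set of raised genes is known for fast responses to stress or growth signals. Ppp1r15a, which restarts protein synthesis after stress, had 497, 534, 399, 513 and 515 CPM in the controls and 809, 720, 598, 675 and 628 CPM in the excess libraries (log2 change 0.48, SE 0.09, adjusted p 0.0333). Control library 3 was its lowest, and without the RT1-CE16-high controls the change was 0.41. Mafk, a small partner of stress-responsive transcription factors, had 81.3, 84.2, 75.7, 77.3 and 85.8 CPM against 124, 108, 108, 107 and 98.1 CPM (0.43, SE 0.08, adjusted p 0.0333). Both genes were higher in each excess library than in any control.

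Gadd45b, a stress sensor, had 172 ± 16.7 CPM on the control and 256 ± 60.1 CPM on the excess diet (SD, n = 5 each, log2 change 0.58), and Ifrd1, a co-regulator of transcription, had 94.8 ± 18.1 and 132 ± 7.55 CPM (0.48). In Ifrd1 the RT1-CE16-high controls (79.3 to 84.5 CPM) were lower than the other controls (106 and 121 CPM), and its change was 0.22 without them. Mcl1, which protects cells from apoptosis, rose by 0.38 on the log2 scale. Btg1 (0.29) and Tob2 (0.32), relatives that slow cell division, and Wsb1 (0.40), Ube2s (0.42) and Pcna (0.38), which act in protein ubiquitination and, for Pcna, in DNA replication, were past the threshold as well. Ube2s had 0.26 and Pcna 0.24 without the RT1-CE16-high controls.

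Zeb1, a transcription factor of mesenchymal and endothelial cells, had 70.5, 71.8, 82.1, 72.4 and 91.4 CPM on the control diet and 124, 103, 105, 98.5 and 92.7 CPM on the excess diet (log2 change 0.43, SE 0.08, adjusted p 0.0333). Here the highest controls were RT1-CE16-high libraries, and the change without them was larger, 0.56. The last of the named raised genes were Uaca, a regulator of the apoptosome (0.50), and Kcnk7, a potassium channel subunit with the largest raised change (0.96, 3.97 ± 1.06 against 7.74 ± 1.74 CPM, SD, n = 5 each). The remaining raised row has an identifier in place of a symbol.

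The promoters of the raised genes were looked at for shared letters, in RefSeq's GRCr8 sequence from 250 bases before to 50 bases after each start, which was found for 23 of the 25 raised genes, 8 of the 14 lowered genes and 11921 of all genes tested. The cyclic AMP response element, TGACGTCA, is the site of CREB and ATF factors. It lay in 3 of the 23 raised promoters (13.04%), in 2.936% of all promoters and in none of the 8 lowered ones. These 3 are shown with the element in capitals, because they are the raised genes in which the whole element was found, each on the strand of its gene:
Ccnl1, chr2:152507481-152507548, minus strand, element at -50 to -43 from the start: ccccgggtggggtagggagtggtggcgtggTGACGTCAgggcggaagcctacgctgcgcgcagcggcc
Ppp1r15a, chr1:105139625-105139692, minus strand, element at -66 to -59 from the start: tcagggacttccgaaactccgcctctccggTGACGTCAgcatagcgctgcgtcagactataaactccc
Wsb1, chr10:64717035-64717079, minus strand, element at -243 to -236 from the start: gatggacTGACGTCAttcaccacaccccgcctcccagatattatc
In Ccnl1 and Ppp1r15a the element lies close to the start, and in Wsb1 at the far end of the window.

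The shorter TGACG, which is contained in the whole element and was searched on both strands, lay in 18 of the 23 raised promoters (78.26%). It lay in 29.99% of all promoters, in 33.73% of the promoters of genes averaging 10 CPM or more, and in 2 of the 8 lowered ones. The raised promoters were also richer in G and C than all promoters (median 64.3% against 60.3%) and held more CG pairs (median 30 against 20 a window), and the part of base composition in the count was not tested. This motif was 1 of 12 searched, and it was picked after the raised genes were known. The others were the direct repeats described below with spacers of 1, 2 and 5 bases, the AP-1 site TGAGTCA, the TATA box TATAAA, the ETS site CCGGAAG, the CCAAT box, the TEAD site GGAATG, the NRF1 site and the serum response element. Of these, the CCAAT box was in 10 of the 23 (43.48%, against 37.49% of all) and the TATA box in 4 (17.39%, against 7.348%), and neither the NRF1 site nor the serum response element was in any. A match is only a run of letters and does not show that a factor bound.

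**Figure D3:**
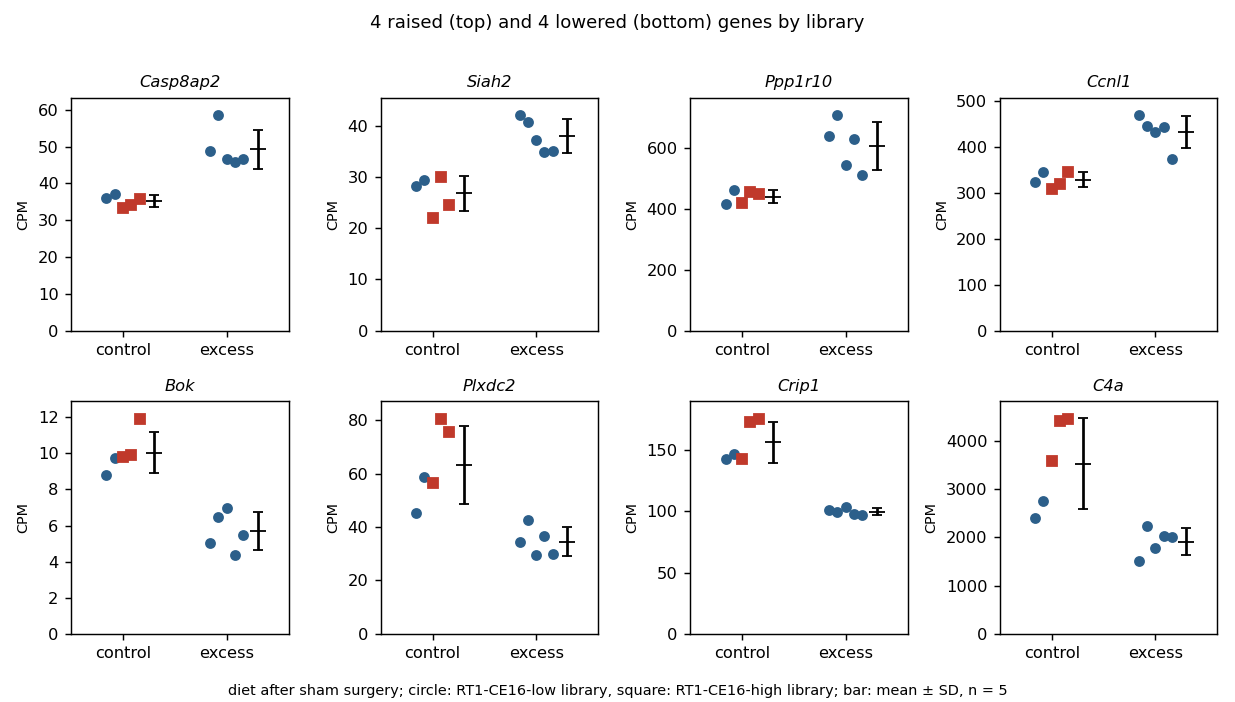
CPM of 4 raised genes (top) and 4 lowered genes (bottom) in each sham library; circles are RT1-CE16-low and squares RT1-CE16-high libraries, and bars are mean ± SD (n = 5). The squares and circles of the controls are mixed for Ppp1r10. For Casp8ap2 both control circles lie just above the 3 squares, whereas for C4a the 3 squares lie above both control circles.

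The lowered genes were led by Bok, a pro-apoptotic member of the BCL2 family. Its level was 8.81, 9.73, 9.82, 9.88 and 11.9 CPM in the controls and 5.06, 6.47, 6.97, 4.39 and 5.47 CPM in the excess libraries. Every excess library was below every control, and the log2 change was -0.82 (SE 0.15, adjusted p 0.0333), or -0.71 without the RT1-CE16-high controls. Bok, Casp8ap2 and Mcl1 were the 3 of 23 tested genes of the apoptosis list past the threshold.

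Plxdc2, a membrane receptor of the plexin-domain type, had 45.1, 58.6, 56.3, 80.5 and 75.7 CPM on the control diet and 34.3, 42.7, 29.4, 36.5 and 29.7 CPM on the excess diet (log2 change -0.87, SE 0.17, adjusted p 0.0333). Scara3, a scavenger receptor induced by oxidative stress, had 13.2, 14.7, 11.3, 19.6 and 24.6 CPM against 8.90, 7.24, 6.51, 10.8 and 5.73 CPM (-1.09, SE 0.22, adjusted p 0.0369). In both genes controls 4 and 5 were the highest and the groups did not overlap. Gramd4 fell as well, from 22.6, 23.7, 24.5, 30.7 and 30.1 CPM to 17.6, 18.9, 17.4, 19.3 and 20.1 CPM (-0.50, SE 0.10, adjusted p 0.0369). Without the RT1-CE16-high controls these 3 changes were -0.59, -0.83 and -0.31.

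Lima1, an actin cross-linker, differed from these in that its controls lay closer together, though the RT1-CE16-low ones were the lowest. It had 56.6, 59.9, 65.7, 63.4 and 63.8 CPM against 41.7, 45.3, 51.0, 48.8 and 47.4 CPM (log2 change -0.40, SE 0.08, adjusted p 0.0369). Crip1, a small LIM-domain protein, had 143, 147, 143, 172 and 175 CPM against 101, 99.2, 104, 97.5 and 96.96 CPM (-0.65, SE 0.13, adjusted p 0.0369). The excess libraries of Crip1 lay between 96.96 and 104 CPM, and no control was below 143 CPM. Without the RT1-CE16-high controls the change was -0.32 for Lima1 and -0.54 for Crip1.

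Prg4, the lubricant proteoglycan of joint and serosal surfaces, had the largest change among the named lowered genes, with 45.3 ± 12.6 CPM on the control and 19.0 ± 2.55 CPM on the excess diet (SD, n = 5 each, log2 change -1.25), and -1.02 without the RT1-CE16-high controls. Upk1b, a uroplakin of urothelium and mesothelium, fell from 95.3 ± 19.4 to 50.3 ± 4.72 CPM (-0.92). Ptgis, which makes prostacyclin, fell from 41.8 ± 9.77 to 20.5 ± 3.29 CPM (-1.02), and C4a, a complement component, from 3524 ± 942 to 1909 ± 277 CPM (-0.88). Without the RT1-CE16-high controls these 3 changes were -0.63, -0.66 and -0.43. All 4 had their lowest control above their highest excess library, but C4a by little, at 2395 against 2230 CPM. C4a shares reads with its near-identical copy C4b, whose change was -0.71 (SE 0.18, adjusted p 0.0859).

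Lgals1, the secreted lectin galectin-1, fell by 0.95 on the log2 scale (47.6 ± 7.92 against 24.7 ± 8.10 CPM, SD, n = 5 each), with its highest level in the RT1-CE16-low controls 1 and 2 (59.3 and 50.8 CPM). St6galnac6, a sialyltransferase, fell by 1.01 and Cep295nl by 0.42, and their changes were -0.65 and -0.19 without the RT1-CE16-high controls. In RefSeq's GRCr8 table, 12 of the 38 of these genes that matched by symbol overlap another gene, and since the counting is not stated to use strand, reads of such pairs cannot be told apart. Cep295nl overlaps Timp2, an inhibitor of matrix proteases. Prg4 overlaps Tpr (log2 change 0.17), Scara3 overlaps Clu (-0.20) and Hnrnpdl overlaps Enoph1 (0.05), none of which passed. The lowered gene outside the naming rule was Rspo3, an activator of Wnt signalling, with 7, 1, 4, 27 and 12 counts in the control libraries and 0, 1, 0, 0 and 0 in the excess libraries. It was named after its values were seen, and at so few counts no fold is given.

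No retinoid gene passed the threshold. Of 59 listed genes 53 were tested, with a median log2 change of -0.03. At an unadjusted p under 0.05 by edgeR, 1 was higher (1.89%) and 7 were lower (13.2%), against 4.94% and 6.12% of all genes tested. Cyp26b1, a retinoic acid-degrading enzyme and a target of retinoic acid, was the 1 higher gene. It had 83.3, 78.2, 103, 67.2 and 86.3 CPM on the control diet and 144, 175, 118, 130 and 256 CPM on the excess diet. The groups did not overlap and excess library 5 was the highest, and the log2 change was 0.98 (SE 0.34, adjusted p 0.254). The difference was as large without the RT1-CE16-high controls (1.03), and after sham with the deficient diet the level was 46.3 ± 21.1 CPM (SD, n = 5).

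Cyp26a1 and Rarb are the textbook genes with a retinoic acid response element near their starts, a direct repeat of AGGTCA or AGTTCA or GGGTCA or GGTTCA with 5 bases between the copies. The repeat was found in 9 of 11921 promoters (0.0755%), on either strand. It is shown in capitals for these 2 because they are the tested retinoid genes that hold it (of 36 with a promoter):
Cyp26a1, chr1:244883700-244883776, plus strand, repeat read on the other strand, at -92 to -76 from the start: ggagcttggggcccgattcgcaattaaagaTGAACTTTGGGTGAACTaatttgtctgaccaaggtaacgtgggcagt
Rarb, chr15:11336414-11336434, plus strand, at 25 to 41 from the start: agGGTTCACCGAAAGTTCAct
The groups overlapped for both genes. Cyp26a1 stood at 5.45 ± 0.944 CPM on the control and 5.42 ± 1.71 CPM on the excess diet (SD, n = 5 each, log2 change -0.01, SE 0.33). Rarb stood at 51.6 ± 6.57 and 58.5 ± 9.09 CPM (0.18, SE 0.13). None of the 23 raised or 8 lowered promoters held the repeat.

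Other target genes had changes no larger than about their error. Dhrs3, a retinal reductase, had a log2 change of 0.09 (SE 0.08) and Tgm2, a transglutaminase, of -0.03 (SE 0.11). The receptors Rara (0.06), Rarg (0.00), Rxra (-0.04) and Rxrb (0.07) were also near 0, and 0 of the 12 receptors and cofactors had an unadjusted p under 0.05. Rbp4, the retinol carrier, had 5.80 ± 2.75 against 2.92 ± 1.65 CPM (SD, n = 5 each, log2 change -0.99, SE 0.43, adjusted p 0.377), or -0.29 without the RT1-CE16-high controls.

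Aldh1a2, the retinaldehyde dehydrogenase, had 56.2, 52.5, 73.7, 124 and 108 CPM in the controls and 46.6, 44.1, 52.2, 43.9 and 50.9 CPM on the excess diet. The excess libraries were below all controls, but controls 1 and 2 were close to them, and the log2 change of -0.80 (SE 0.24, adjusted p 0.179) was -0.19 without the RT1-CE16-high controls. Dhrs9, a retinol dehydrogenase, had a change of -1.05 (SE 0.30, adjusted p 0.135), or -0.47 without them, and Adh7, an alcohol dehydrogenase, of -1.58 (SE 0.68), or 0.23 without them. Rarres2, the chemoattractant chemerin, which retinoids induce in skin, had lower values on the excess diet, with 21.3, 22.5, 18.9, 24.6 and 17.7 CPM against 11.7, 15.1, 13.2, 11.1 and 14.1 CPM. The groups did not overlap, the change was -0.69 (SE 0.16, adjusted p 0.0649), and it was -0.75 without the RT1-CE16-high controls.

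**Figure D4:**
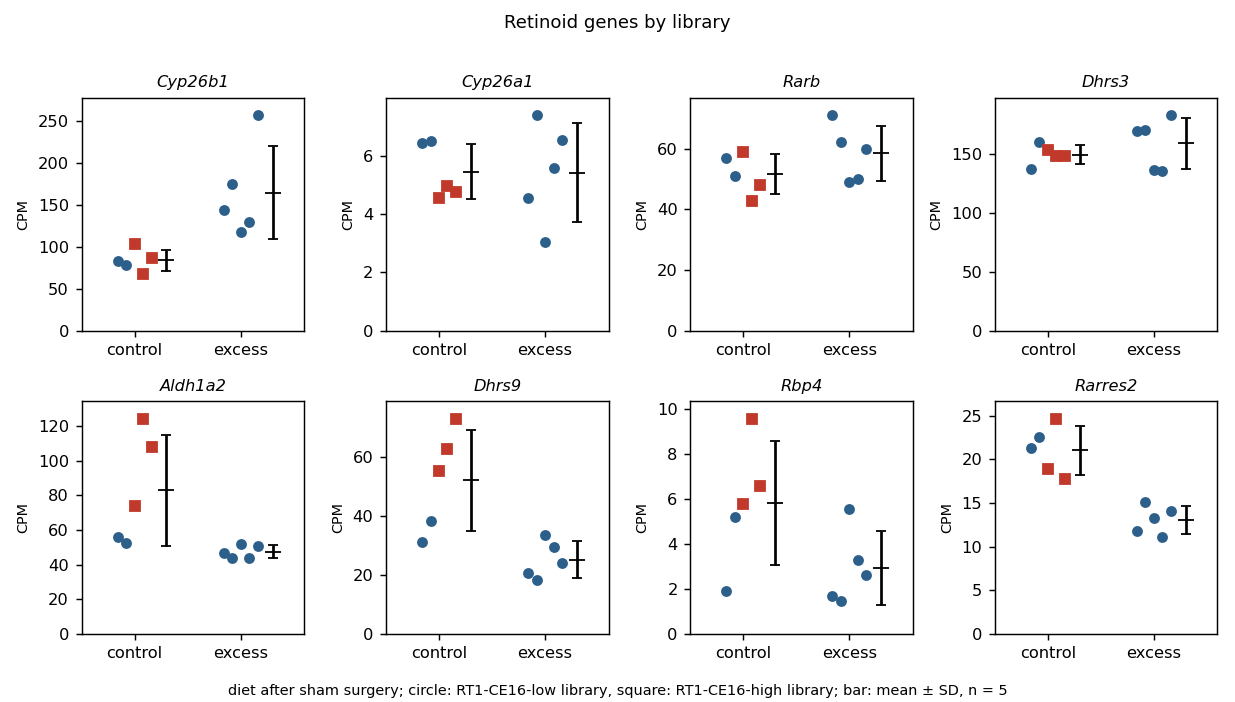
CPM of 8 retinoid genes in each sham library; circles are RT1-CE16-low and squares RT1-CE16-high libraries, and bars are mean ± SD (n = 5). Cyp26b1 is higher in all excess libraries (118 to 256 CPM) than in the controls (67.2 to 103 CPM), Cyp26a1, Rarb and Dhrs3 overlap, and the high Aldh1a2 and Dhrs9 levels are the squares.

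Gene lists and classes show where the remaining small differences lay. They are described by counts and medians, none of which is a test. Beside the counts stand the shares of all genes tested at an unadjusted p under 0.05, 4.94% higher and 6.12% lower. In either direction that share was 7.57% among genes under 1 CPM and 14.3% among those at 100 to 1000 CPM. Immediate early genes, the transcription factors and regulators switched on within minutes of a stimulus, had a median log2 change of 0.26, with 18 of 20 above 0. None passed the adjusted threshold, while 11 had a higher and 0 a lower level at an unadjusted p under 0.05. Nr4a2, an orphan nuclear receptor, had 22.2, 29.3, 21.5, 25.3 and 23.9 CPM against 32.9, 34.5, 29.8, 32.6 and 43.6 CPM (log2 change 0.50, SE 0.12, adjusted p 0.0664), without overlap. Fos, the best-known member, stood at 2688 ± 369 and 2686 ± 109 CPM (SD, n = 5 each, SE of the log2 change 0.09), and Jun (0.27, SE 0.11) and Atf3 (0.35, SE 0.11) lay higher without passing. The median was also 0.26 without the RT1-CE16-high controls.

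Inflammation genes had a median of 0.24, with 7 of 17 higher and 1 lower at an unadjusted p under 0.05, led by Nfkbiz, an inhibitor-like partner of NF-kappa B (461 ± 38.5 against 606 ± 49.9 CPM, SD, n = 5 each, log2 change 0.39, SE 0.10, adjusted p 0.0840). The median was 0.26 without the RT1-CE16-high controls. Glucocorticoid-induced genes had a median of 0.36, with 4 of 12 higher and 0 lower at that p, among them Per1, a clock gene (0.65, SE 0.25) and Klf9, a Kruppel-like factor (0.34, SE 0.13). Chromatin and splicing regulators had a median of 0.13 and 9 of 25 higher, with 22 above 0. Without the RT1-CE16-high controls the medians of these 2 lists were 0.29 and 0.11. Clk1, a kinase of splicing factors, had a change of 0.24 (SE 0.08, adjusted p 0.242). Genes of the heat shock and unfolded protein response had a median of 0.20 with 5 of 18 higher, which became -0.01 without the RT1-CE16-high controls.

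Matrix genes lay on the other side, with a median of -0.37, 10 of 23 lower and 1 higher at an unadjusted p under 0.05, and -0.34 without the RT1-CE16-high controls. Postn, the matricellular protein periostin, had 69.4, 55.0, 52.1, 57.4 and 57.4 CPM in the controls and 30.7, 39.6, 27.6, 40.9 and 39.2 CPM on the excess diet. The groups did not overlap, the log2 change was -0.71 (SE 0.16, adjusted p 0.0649), and controls 1 and 2 were not nearer to the excess libraries than the others. Mmp14, a membrane-bound protease of the matrix, was alike (48.9 ± 2.83 against 37.4 ± 2.68 CPM, SD, n = 5 each, -0.38, SE 0.10, adjusted p 0.0840). Col1a2, a chain of fibrillar collagen, had -0.61 (SE 0.15, adjusted p 0.0827), and Tgfb3, a TGF-beta ligand, -0.63 (SE 0.17, adjusted p 0.120). Plod2, which hydroxylates collagen lysines, had -0.42 (SE 0.11, adjusted p 0.0840).

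Markers of fibroblasts and mural cells were lower beside these genes. The 9 fibroblast markers all had lower levels on the excess diet (median -0.45, 2 at an unadjusted p under 0.05), and summed to 1922 to 3194 CPM in the controls and 1346 to 2253 CPM in the excess libraries. The median of the 9 mural cell markers was -0.37, with sums of 232 to 335 CPM against 164 to 271 CPM. Without the RT1-CE16-high controls the 2 medians were -0.67 and -0.48. No marker of either list was at 0 in all libraries of a group. The part of these cells in the matrix genes was not tested. Markers of type 2 alveolar epithelial cells were not lower as a list, with a median of 0.03 and 5 of 9 above 0. Their median was -0.18 without the RT1-CE16-high controls.

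The 4 tested mesothelial markers, Msln, Lrrn4, Wt1 and Upk3b, all had lower levels at an unadjusted p under 0.05, with a median log2 change of -0.79 and none past the adjusted threshold. They summed to 293, 304, 385, 499 and 464 CPM in the controls and 221, 257, 224, 210 and 216 CPM on the excess diet. The 3 RT1-CE16-high controls were the highest and the groups did not overlap, and the median was -0.27 without those controls. Msln, mesothelin, had a change of -0.78 (SE 0.19, adjusted p 0.0710), or -0.47 without them. The part of mesothelial cells in the changes of Upk1b, Prg4 and Aldh1a2 was not tested.

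The 9 endothelial markers had a median of 0.01, with 2 higher and 0 lower at an unadjusted p under 0.05, and summed to 10771 to 12757 CPM in the controls and 10932 to 12164 CPM in the excess libraries. Erg, the transcription factor that keeps endothelial identity, was the member nearest to the threshold, at 87.9, 82.9, 88.4, 67.1 and 86.5 CPM against 137, 109, 105, 88.6 and 102 CPM (log2 change 0.39, SE 0.10, adjusted p 0.0827). The lowest excess library, at 88.6 CPM, was barely above the highest control. Markers of venous endothelium were all 6 lower (median -0.38), with Ackr1, the chemokine-scavenging receptor, at -0.47 (SE 0.19). The receptors and targets of BMP9 and ALK1, the pathway that keeps arteries and veins apart, had a median of 0.00, and 0 of 17 had an unadjusted p under 0.05. Among VEGF and angiopoietin genes, Vegfa was higher without overlap (1211 ± 115 against 1549 ± 75.1 CPM, SD, n = 5 each, 0.36, SE 0.11, adjusted p 0.147).

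**Figure D5:**
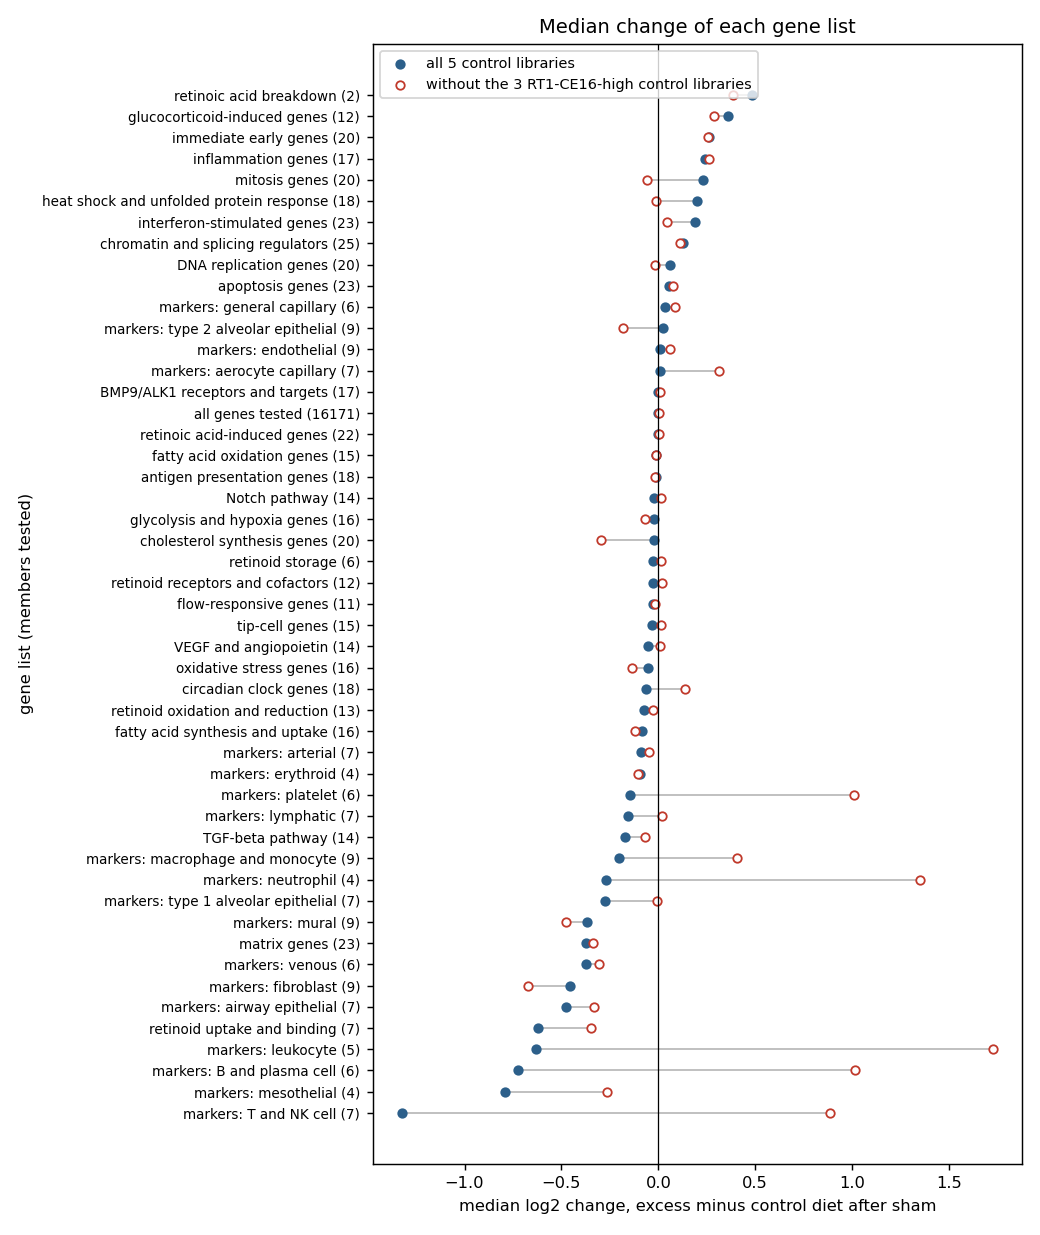
Median log2 change, excess minus control diet after sham (x axis), of each gene list with the number of members tested (y axis), with all 5 controls (filled) and without the 3 RT1-CE16-high controls (open). Immediate early, inflammation and matrix genes keep their medians (0.26, 0.24 and -0.37 with all controls), whereas the leukocyte-type lists at the lower end cross 0.

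Leukocyte lists changed sign with the controls used. The 5 general leukocyte markers had a median of -0.63 with all controls and 1.73 without the RT1-CE16-high ones, and control library 3 alone held 63.5 CPM of them. T and NK cell markers went from -1.32 to 0.89 and B and plasma cell markers from -0.72 to 1.02 in the same way. Interferon-stimulated genes had a median of 0.19, with 0 of 23 at an unadjusted p under 0.05, and -0.16 in a fit with RT1-CE16 level as a term.

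By class of gene name, 44 classes held 4095 of the tested genes (25.3%), and the 43 classes of 10 or more genes had medians within 0.24 of 0. SR and hnRNP splicing factors had 14 of 50 higher and 0 lower at an unadjusted p under 0.05, a median of 0.11 and 84.0% above 0, and 2 of them, Hnrnpdl and Srsf3, were past the adjusted threshold. Without the RT1-CE16-high controls that median was 0.03. Kruppel-like factors had 5 of 15 higher and 0 lower, with a median of 0.14, or 0.21 without those controls. Klf6 (log2 change 0.33, SE 0.10, adjusted p 0.159) and Klf2 (0.34, SE 0.13, adjusted p 0.326), factors that respond to blood flow, were among the higher. The list of flow-responsive genes had a median of -0.03, with 3 of 11 higher and 2 lower at an unadjusted p under 0.05. Proteasome subunits (median 0.07) and ribosomal proteins (0.06) lay mostly above 0, but their medians were -0.02 and -0.12 without those controls.

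On the lower side, where 6.12% of all genes tested had an unadjusted p under 0.05, were the semaphorins and plexins, with 8 of 28 lower and 0 higher (-0.13), and the aldehyde dehydrogenases, with 6 of 17 lower and 0 higher (-0.17). Collagens had a median of -0.17 with 7 of 40 lower and 2 higher, and keratins -0.24 with 4 of 20 lower and 0 higher. Solute carriers, with 25 of 279 lower (8.96%) and 8 higher, lay near that share (-0.09). Without the RT1-CE16-high controls the medians of the first 4 were -0.06, -0.19, -0.13 and -0.32. Other medians below 0 crossed it without those controls, among them Hox factors (-0.19 to 0.01), integrins (-0.16 to 0.02), chemokines and their receptors (-0.14 to 0.08) and the tumour necrosis factor family (-0.12 to 0.01).

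The widest changes had wide errors and did not pass the threshold. Among genes over 1 CPM the lowest were Ly6a (log2 change -4.44), Fam111a (-4.07) and RT1-CE16 itself (-3.41), with overlapping groups and changes of -0.10, 1.06 and 0.06 without the RT1-CE16-high controls. Next came Ighm, an immunoglobulin chain (-2.0), Cyp1a1, a target of the aryl hydrocarbon receptor (-1.98), and Gp2 (-1.96), which became 2.29, -1.66 and -1.52. The highest were Zxda (2.17), Sdcbp2 (1.76), Nr1d1, a clock repressor (1.59), a row named Cdk12 that shares its symbol with another row (1.51), Sv2c (1.5) and Cyp2d3 (1.33). Zxda had 1.40, Sdcbp2 0.98, Nr1d1 0.57, Sv2c 0.32 and Cyp2d3 0.65 when those controls were left out. That row of Cdk12 had 0 CPM in controls 1 and 2, so no change is given for it there. Of these 12, Sdcbp2 and Gp2 were the 2 whose groups did not overlap.

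The same diets after the Glenn operation give values in other libraries, where 237 genes (1.47%) differed. Of the 39 genes, 36 had the same sign there, against 59.4% of all genes tested, and their changes were at a median 41.8% of the size after sham. Prg4 (log2 change -1.61, SE 0.31, adjusted p 0.00987) and Upk1b (-1.01, SE 0.22, adjusted p 0.0196) were the 2 past the threshold in both. Casp8ap2 had 0.17 (SE 0.09, adjusted p 0.411) and Siah2 0.10 (SE 0.09, adjusted p 0.725) after Glenn. Cyp26b1 had 1.18 after Glenn and 0.98 after sham, without passing in either. In that comparison 3 of the 5 excess libraries are in the other number range of library names and are RT1-CE16-high, so it depends on the term for that range. Glenn controls 4 and 5 are RT1-CE16-high as well (533 and 407 CPM) but lie in the first range. In CPM, without that term, the diets overlapped after Glenn for Prg4 (49.0 ± 19.2 against 29.4 ± 17.5 CPM, SD, n = 5 each). They also did for Upk1b (95.6 ± 34.5 against 77.2 ± 37.5 CPM). The part of RT1-CE16 level in the signs after Glenn was not tested.

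The difference between the diet effects was tested directly. It passed for 3 genes (0.0186%), none of them among the 39. Rftn1, a lipid raft protein, had 40.8 ± 2.60 CPM on the control and 35.3 ± 1.98 CPM on the excess diet after sham, but 40.1 ± 5.14 and 57.2 ± 6.93 CPM after Glenn (SD, n = 5 each, difference of log2 changes 0.85, adjusted p 0.0032). Chn2, a regulator of the GTPase Rac, differed by 0.89 (adjusted p 0.0229) and Maob, a monoamine oxidase, by 0.98 (adjusted p 0.0304). In all 3 the change after sham was below 0 and small (-0.21, -0.14 and -0.30). Plod2 was next, with 0.80 (adjusted p 0.0683).

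The deficient diet after sham shares its control libraries with this comparison, so its values are only set side by side. Casp8ap2 stood at 40.8 ± 2.64 CPM on the deficient diet and Prg4 at 34.0 ± 14.6 CPM (SD, n = 5 each). Upk1b stood at 98.7 ± 31.3 CPM there. Of these 5 libraries 3 are in the other number range of library names and are RT1-CE16-high, while deficient libraries 1 and 2 are RT1-CE16-low. In the edgeR fit with that range as a term, the deficient minus control log2 changes were 0.26 for Casp8ap2, -1.17 for Prg4 and -0.59 for Upk1b. Their adjusted p were 0.583, 0.328 and 0.708. In that fit all 39 genes had the sign of their excess diet change at a smaller size, and 0 of 16171 genes tested passed the threshold. The share of all genes doing so was not counted, and the parts of the shared controls and of RT1-CE16 level in it were not tested.

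RT1-CE16 level went with many of the same genes in the 20 libraries outside the sham control and excess groups. All 8 libraries of the other number range are among these and are RT1-CE16-high, and every RT1-CE16-low one is in the first range. Only Glenn controls 4 and 5 are RT1-CE16-high in the first range. The fit had no term for the range, so level and range cannot be told apart in its values. There the low minus high difference was past the threshold for 493 genes (3.05%), and it had the sign of the diet change in 38 of the 39 genes, against 62.1% of all genes tested. Among the raised genes its median was 0.07 and 2 of 25 were past the threshold, Uaca (0.32) and Ube2s (0.20). Among the lowered genes its median was -0.35 and 5 of 14 were past it: Upk1b (-0.93, SE 0.13), Prg4 (-0.95, SE 0.22), Ptgis (-0.89, SE 0.14), C4a (-0.56, SE 0.11) and Cep295nl (-0.22, SE 0.05). In the fit with RT1-CE16 level as a term, the 39 diet changes kept their sign at a median 80.1% of their size, and none passed the adjusted threshold. With 2 RT1-CE16-low controls and no RT1-CE16-high excess library, the parts of diet and of that level cannot be told apart further.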

How the data were processed

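The authors deposited 1 table of estimated counts per gene made with Salmon; the submitters' processing notes also name STAR, Trim Galore, FastQC, Picard and the build mRatBN7.2 (rn7). Versions and strandedness are not given in the sources used here. Of the values, 13.6% were not whole, and 946 rows share a name. Rounded counts were filtered by filterByExpr (minimum count 10, minimum total 15; 16171 of 30562 rows kept), scaled by TMM and fitted with edgeR 4.0.16 (glmQLFit with robust dispersions, glmQLFTest) in R 4.3.3 over all 30 libraries, with 6 group means and the number range of the library names (22 and 8 libraries). P-values were adjusted by Benjamini-Hochberg, with a threshold of 0.05, and SE is the log2 change over the square root of F. RT1-CE16-high means over 100 CPM. No 2 libraries of a group were alike within sampling noise (chi-square per degree of freedom 21.4 to 98.1).

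Named are all genes past the threshold with a symbol and a mean of at least 1 CPM (8 raised and 6 lowered with the smallest p by library), the 6 highest and 6 lowest changes, up to 3 genes a list with the smallest p, 4 interaction genes and 19 preset genes. Other genes were named after their values were seen. The members, 48 lists, 44 classes and motifs were chosen with earlier results of these data known. Alternatives were limma 3.58.1 voom, DESeq2 1.42.0, other filters, scalings and terms, and leaving out libraries. On simulated data of 15998 genes the test recovered 33 of 50 genes changed by 0.5 on the log2 scale and 50 of 50 changed by 1, with 4 false calls. The simulated libraries held no RT1-CE16 split, leukocyte-rich library or effect of the number range, so false calls from these are not covered. RefSeq GRCr8 gave promoters for 74.2% of tested symbols. Figures were drawn with matplotlib 3.10.9. The values of 1 gene that the naming rule lists are not reported here.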

Additional observations from a re-analysis of the deposited data

Results flagged for a closer look

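In groups of 5, a single library stood apart from the other 4 (a gap of over 0.71 of the group's range) for 8 of 110 sets of values checked, where chance gives about 5.5. Among raised genes, excess library 2 was high for Casp8ap2 (58.5 CPM, others 45.8 to 48.8, gap 0.762 of the range), control library 2 was high for Pcf11 (112 CPM, others 85.0 to 90.2, gap 0.803), and excess library 5 was low for Ythdc1 (39.5 CPM, others 47.0 to 48.7, gap 0.822). Control library 3 was low for Ppp1r15a (399 CPM, others 497 to 534, gap 0.723) and Mcl1 (276 CPM, others 314 to 327, gap 0.735). It was high for Cdh5 (2926 CPM, others 2334 to 2499, gap 0.721) and for Ptprc, the general leukocyte gene (18.9 CPM, others 1.51 to 2.49, gap 0.944). Excess library 5 was high for Tgm2 (1201 CPM, others 1007 to 1055, gap 0.753). Control library 3 thus makes up 4 of the 8.

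The effect of the excess diet differed between the operations for Rftn1 (after Glenn minus after sham 0.85 on the log2 scale), Chn2 (0.89) and Maob (0.98), by a test of the difference itself in edgeR.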

How the results depend on the processing

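The 37 named genes past the threshold kept their sign under 24 alternatives, and 377 of 888 such values kept their side of the threshold. The count of 39 genes became 210 with DESeq2 and 118 with limma voom (39 and 38 of the 39 among them), 22 without a filter, 11 without the term for library names, 9 in the 22 libraries of 1 number range, and 25 with the 10 libraries alone (12 of the 39 among them). It was 0 with RT1-CE16 level as a term, 0 in RT1-CE16-low libraries and, as alternatives chosen after seeing the data, 0 without the RT1-CE16-high sham controls and 0 with both terms; at an unadjusted p under 0.05 these gave 1108, 849, 904 and 927 genes. With the replicate number as a block the count was 111; same-numbered libraries did not deviate together (r -0.104 to 0.084 over 5 pairs, 1 of 5 best with its own number), so the numbers do not pair them. Leaving out 1 library gave 0 (control 3, excess 1 or excess 2) to 79 (control 1; 69 without control 2); it was 1 without control 4 or control 5, 5 without excess 4 and 17 without excess 3.

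The 3 genes whose diet effect differed between operations became 53 with DESeq2, 23 with voom, 5 in 1 number range, 1 in RT1-CE16-low libraries and 0 without the term for library names or with the 4 groups alone (1226 and 1184 at an unadjusted p under 0.05). Leaving out 1 library gave 1 to 34 (34 without Glenn control 1, 11 without Glenn control 2). Except where a setting fits fewer libraries or genes, the cause was not tested. Among the lists, the medians of immediate early (0.21 to 0.28), inflammation (0.16 to 0.28), glucocorticoid-induced (0.17 to 0.40), chromatin and splicing (0.08 to 0.16), matrix (-0.39 to -0.27), fibroblast (-0.67 to -0.32) and mesothelial genes (-0.90 to -0.27) kept their sign in all 24.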

Other observations

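Rn18s, a ribosomal RNA row, had 817, 530, 1911, 2155 and 2019 CPM in the control libraries and 332, 504, 358, 347 and 380 CPM in the excess libraries (log2 change -1.95, SE 0.43, adjusted p 0.0527), with the 3 RT1-CE16-high controls far above the rest and -0.81 without them. Ahsp, a haemoglobin chaperone of red cell precursors, had 5.92 ± 2.25 against 2.61 ± 0.527 CPM (SD, n = 5 each, -1.18, SE 0.29, adjusted p 0.0827). In a principal component analysis of the 10 libraries, the first component (18.5% of the variance) set excess library 1 apart (57.8) with the RT1-CE16-high controls at the other end (-18.4 to -45.4), and the second (16.3%) set control library 3 apart (-61.4). Neither component separated the diets alone.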
